A study of Mus musculus with 22 samples.

Results

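The comparison set the 2 opposite ends of a brain cut along the sagittal axis against each other. Fraction 6, which pooled slabs 7 to 9, was compared with fraction 1, which pooled slabs 1 and 2, and with fraction 2, which was slab 3. These 3 arrays are part of a sagittal series of 6 and of 22 arrays in all, and all 6 sagittal arrays lay on slide 3. Members of the comparison were probes with a RefSeq identifier that the scanner software marked well above background on all 3 arrays. Of 28087 such identifiers on the array, 20002 probes met this rule and gave 14786 genes. Where a gene had several probes, the one brightest in the median of the 22 arrays was used. The other 8085 probes were below that mark on at least 1 of the 3 arrays.

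Total RNA of slabs cut from whole brains was labelled with Cy3 and hybridised to Agilent arrays, with 1 array for each fraction and no replicate of any fraction. All 3 brains came from male mice of the inbred strain C57BL/6J, and the labels name no treatment. The sagittal series was mouse 3, and the 10 coronal and the 6 horizontal fractions were cut from the other mice. The age is 7 days in the sample titles but 3 days in the characteristics. Fractions 1 and 2 are neighbouring slabs of a single brain, so they are not replicates, and the labels do not say which side of the head fraction 1 came from. Slabs are given by number, because the labels state 100 slices of 5 µm and the methods of the study a thicker fraction. Levels are log2 intensities, background-subtracted by the scanner software, from which each array's 75th percentile was taken, so that 75% of the probes of an array lie at or below 0.

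A sagittal slab at the edge of a brain can hold brain tissue and also what adheres to it. Neutrophils are white blood cells that mature in bone marrow and carry large amounts of the calcium-binding proteins S100a8 and S100a9. Osteoblasts lay down bone matrix and make bone sialoprotein and osteocalcin, red cells carry haemoglobin, and the choroid plexus makes cerebrospinal fluid and transthyretin. In RNA from a whole slab, fewer cells of a type and less RNA in each cell cannot be told apart.

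The promoters of S100a8, S100a9 and Ibsp are shown because S100a8 and S100a9 moved together and Ibsp had the widest gap between fractions 1 and 6 of the 5 markers. The sequences are those of RefSeq on GRCm38.p6, from 250 bases before to 50 bases after the annotated start, and capitals mark the motifs searched on both strands. These were the C/EBP core TTNNGNAA of a transcription factor family of myeloid cells, the TATA box TATAAA, and the Runx element AACCACA.

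S100a8, chr3:90668821-90669120, plus strand: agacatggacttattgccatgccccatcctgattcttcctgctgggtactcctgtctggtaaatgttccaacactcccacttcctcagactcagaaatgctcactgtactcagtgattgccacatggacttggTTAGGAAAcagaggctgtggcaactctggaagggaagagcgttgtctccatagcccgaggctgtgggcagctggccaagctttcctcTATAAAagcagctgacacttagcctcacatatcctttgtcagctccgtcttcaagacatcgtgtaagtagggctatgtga
S100a9, chr3:90695672-90695971, minus strand: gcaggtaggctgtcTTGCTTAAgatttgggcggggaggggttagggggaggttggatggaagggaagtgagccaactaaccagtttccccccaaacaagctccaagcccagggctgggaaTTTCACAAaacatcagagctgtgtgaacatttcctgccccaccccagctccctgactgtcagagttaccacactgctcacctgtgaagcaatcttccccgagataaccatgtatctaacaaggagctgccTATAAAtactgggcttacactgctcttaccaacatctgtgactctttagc
Ibsp, chr5:104299037-104299336, plus strand: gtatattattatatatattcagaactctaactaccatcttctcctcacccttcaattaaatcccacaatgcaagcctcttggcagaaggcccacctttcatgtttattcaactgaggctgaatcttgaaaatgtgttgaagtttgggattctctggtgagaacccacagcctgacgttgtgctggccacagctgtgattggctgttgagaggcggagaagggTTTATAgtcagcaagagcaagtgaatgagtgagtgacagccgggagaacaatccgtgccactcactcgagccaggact

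The S100a8 window holds a C/EBP core that begins 117 bases before the start and a TATA box that begins 30 bases before it. In the S100a9 window the C/EBP core stands on the opposite strand at positions -236 and -130 from the start, and the TATA box begins at the annotated start itself. The Ibsp window holds a TATA box on the opposite strand 28 bases before the start and no C/EBP core, and none of the 3 windows holds the Runx element. Of 27025 promoters of this length, 40.7% hold the C/EBP core, 14.2% the TATA box and 5.37% the Runx element. A match of letters is a description of the window.

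The arrays of the 2 ends were not alike in quality. The slope of the spike-in controls, which is near 1 on a linear array, was 0.773 in fraction 1, 0.977 in fraction 2 and 0.991 in fraction 6. The spike-in control a107 read 8.23 on the log2 scale in fraction 1 and 7.14 in fraction 3, against 4.13 to 4.81 in the other 4 sagittal fractions. The 75th percentile of intensity was 466.4 in fraction 1, 566 in fraction 2 and 260 in fraction 6, the lowest of the 22 arrays. Among probes printed at least 8 times, the SD between spots of an array was about 0.061 to 0.068 log2 units for bright probes and 0.318 to 0.337 for dim ones on these 3 arrays. Pan-neuronal genes, which mark neurons of any kind, were well above background on all 3 arrays in 17 of 17 cases.

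Fraction 6 stood apart from every other sagittal array. The median absolute difference between fraction 6 and another sagittal fraction was 0.40 to 0.53 log2 units over the 14786 genes, and among the other fractions it was 0.11 to 0.32. Between fraction 6 and fractions 1 and 2, 20.4% and 18.6% of genes differed by at least 1 log2 unit. Fractions 1 and 2 differed that much in 1025 genes (6.93%), of which 551 were higher in fraction 1 and 474 in fraction 2. A gene was therefore called by fold only when fraction 6 lay at least 1 log2 unit above, or below, both fractions. This is a description of 3 arrays with no test. A gene for which fraction 6 lies between fractions 1 and 2 cannot be called by it. By this rule 1250 genes were higher in fraction 6 (8.45% of the genes) and 494 were lower (3.34%). The share of higher genes among those called was 71.7%, and it was 53.1% after quantile normalisation. At 2 log2 units the counts were 110 and 11.

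The same contrast was tested in limma, in a model of all 22 arrays in which fraction 6 was assumed to vary like the other arrays. Rose and fell are used here for genes past this test, whose spread comes mostly from the fit to the other mice and holds no replicate of fraction 6. It called 2928 probes higher (7.39% of 39621 tested) and 1106 lower (2.79%) at a Benjamini-Hochberg adjusted p under 0.05, or 10.2% in all. Among the 14759 member genes in that test, 1044 rose (7.07%) and 548 fell (3.71%), and 795 of the genes higher by fold and 287 of the lower ones were among them. The total of 4034 probes was 1955 without fraction 1 and 1657 without fraction 2, and the share that was higher was 72.6%, 51.2% after quantile normalisation and 85.1% with normexp background correction, which models the background of each array. With the 6 sagittal arrays alone limma called 0 probes, with 9587 at an unadjusted p under 0.05. An exact permutation of 1 array against 2 cannot give a p below 0.333.

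**Figure D1:**
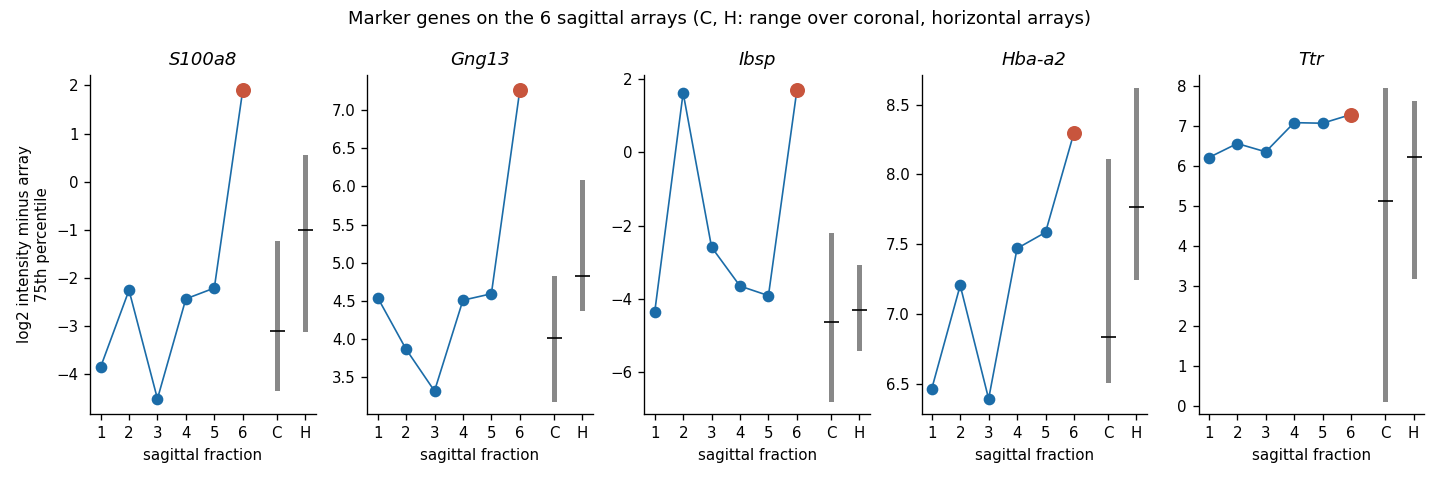
Level of each marker gene (log2 intensity minus the array's 75th percentile) on the 6 sagittal arrays, with fraction 6 in red. Grey bars give the range, and black ticks the median, over the 10 coronal (C) and 6 horizontal (H) arrays, and each panel has its own vertical scale. In fraction 6, S100a8 is at 1.90 against at most 0.51, Gng13 at 7.26 against at most 6.05, and Ibsp at 1.61 in fraction 2 and 1.68 in fraction 6 against at most -2.27.

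S100a8 gave the largest positive difference of the 14786 genes. Its level was -3.86 in fraction 1, -2.26 in fraction 2, -4.51 in fraction 3, -2.44 in fraction 4, -2.21 in fraction 5 and 1.90 in fraction 6. Fraction 6 was 17.8-fold above the nearer of the 2 fractions at the other end, and the limma difference was 4.96 (SE 1.05, Benjamini-Hochberg adjusted p = 0.00938). It also exceeded the coronal arrays, at -4.30 to -1.27, and the horizontal arrays, at -3.06 to 0.51. S100a9, the partner with which S100a8 forms calprotectin, was at -2.21, -0.58, -2.92, -0.85, -0.53 and 3.09 in fractions 1 to 6, and rose by 4.49 (limma adjusted p = 0.0199). The stefins Stfa1 and Stfa3, cysteine protease inhibitors of neutrophils, rose by 4.69 and 3.44 (limma adjusted p = 0.0142 and 0.00615). The stefin genes are near-identical copies, so their probes may share signal. Without fraction 1 the limma adjusted p was 0.0579 for S100a8, 0.113 for S100a9 and 0.0802 for Stfa1, with differences of 4.16, 3.68 and 4.06, and Stfa3 kept its call at 0.0277.

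Of 25 genes on the neutrophil list, 14 were members, 6 were higher by fold, none was lower and 4 rose in limma, against 8.45% of all member genes higher by fold and 7.07% risen in limma. The median difference over these 14 was 0.69, against 0.06 over all member genes, and it was 1.24 without fraction 1, 1.11 without fraction 2 and 0.36 after a correction for the shift of genes of like genomic span in each array. The granule genes Camp, a cathelicidin, and Mpo, myeloperoxidase, were higher by fold at 1.54 and 1.56 and did not pass the test (limma adjusted p = 0.152 and 0.306), while a second Camp probe rose by 1.37 (limma adjusted p = 0.00872). Cebpe, a transcription factor of granulocyte maturation, was well above background in fraction 6 and in neither fraction 1, where it was at least 4.56-fold lower, nor fraction 2, where it was at least 2.71-fold lower. Padi4, an enzyme of neutrophils, went the other way and was well above background in fractions 1 and 2, on different probes, and not in fraction 6. The stefin-like genes Cstdc4 and Cstdc5, which are not on the list, rose by 3.98 and 3.84 (limma adjusted p = 0.0400 and 0.0230). Neither kept its call without fraction 1 (limma adjusted p = 0.0940 and 0.0806) or without fraction 2 (0.137 and 0.0756), and Cstdc4 lost it under median centring and quantile normalisation too (0.0710 and 0.0784).

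The alpha and beta globin genes also had their highest sagittal level in fraction 6. Hba-a2, an alpha globin, was at 6.47, 7.21, 6.39, 7.47, 7.59 and 8.30 in fractions 1 to 6, 2.13-fold above the nearer fraction, with a difference of 1.46 (SE 0.50, limma adjusted p = 0.0786). That difference was 0.19 after quantile normalisation (limma adjusted p = 0.844) and 0.95 after the correction for gene span. The coronal arrays reached 8.09 and the horizontal arrays 8.60, so fraction 6 lay within the range of the other mice. The beta globin Hbb-bt was at 3.73, 4.68, 3.82, 4.93, 4.99 and 6.21 and rose by 2.01 (limma adjusted p = 0.0490). Slc4a1, the anion exchanger of the red cell membrane, rose by 1.18 (limma adjusted p = 0.0124). Of 11 members among 23 erythroid genes, 5 were higher by fold, none was lower, 2 rose in limma and the median difference was 1.05, or 0.64 without fraction 1. The share higher by fold was 8.45% over all member genes, and this holds for the main count of each list that follows. Over all member genes it was 11.6% without fraction 1 and 13.5% without fraction 2. It was 4.96% after quantile normalisation, 7.25% with median centring and 5.41% with normexp. The count by fold was 2 after quantile normalisation and 2 after removal of the shift that genes of like genomic span had in each array. Epb42, a red cell membrane protein, was well above background in fraction 6 of the 3 arrays, and at least 4.25-fold lower in fraction 1 and 7.94-fold lower in fraction 2. A gene detected in fraction 6 alone had to differ in this direction, and over the non-neural lists Cebpe and Epb42 were the 2 such genes, against 12 that were well above background in fractions 1 and 2 and not in fraction 6.

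Several bone genes were high in fraction 2 and in fraction 6. Ibsp, bone sialoprotein, was at -4.36 in fraction 1, 1.61 in fraction 2, -2.59 in fraction 3, -3.65 in fraction 4, -3.91 in fraction 5 and 1.68 in fraction 6. Fraction 6 exceeded fraction 2 by 0.07 and fraction 1 by 6.04, and the limma difference of 3.06 (SE 1.80) did not pass the test (adjusted p = 0.346). Without fraction 2 that adjusted p was 0.0396, and without fraction 1 it was 0.990. No array of the other mice came above -2.27. The second Ibsp probe gave -4.14, 0.08, -3.34, -5.77, -5.46 and -1.27 in fractions 1 to 6, with fraction 2 the highest. A second Bglap3 probe differed by 3.51 and a second Acp5 probe by 2.71, near the values of the probes read for these genes.

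In the osteocalcin genes Bglap3 and Bglap2, fraction 6 was above fraction 2 as well, and neither gene passed the test. Bglap3 was at -0.90, 1.45, -0.86, -1.18, -0.69 and 4.03 in fractions 1 to 6 (difference 3.75, limma adjusted p = 0.0507). Bglap2 was at -1.76, 0.92, -1.73, -1.92, -1.73 and 3.05 (difference 3.47, limma adjusted p = 0.0820). These genes are near-identical copies. Acp5, an acid phosphatase of bone-resorbing osteoclasts, was at 3.18 in fraction 2 and 3.92 in fraction 6, and between -0.43 and 0.04 in the other sagittal fractions. Ctsk, the osteoclast collagenase cathepsin K, was at 2.17 and 3.03 in these fractions and between 0.54 and 0.87 in the others. Of the 8 osteoclast members, 6 were above both fractions 1 and 2 in fraction 6, which was the highest of the 6 arrays in 5, with a median difference of 0.51 (0.59 against fraction 1 and 0.42 against fraction 2). None was higher by fold or passed the test, and Clcn7, a chloride transporter of these cells, was lowest in fraction 6 (difference -0.82, limma adjusted p = 0.143). Col1a1, the main collagen chain of bone, was at 4.17 and 4.30 in fractions 2 and 6 and at 2.30 to 2.76 elsewhere. Of 13 osteoblast members, 3 were higher by fold, 1 was lower (Smpd3, -1.25) and none passed the test. Their median difference was 1.48 against fraction 1 and 0.14 against fraction 2, and without fraction 2 the number higher by fold was 9.

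Ttr, transthyretin, was at 6.21, 6.56, 6.35, 7.08, 7.07 and 7.29 in fractions 1 to 6. The difference of 0.90 (SE 1.95, limma adjusted p = 0.854) was -0.09 after quantile normalisation, and the coronal arrays ran from 0.17 to 7.90. Of 18 choroid plexus members, 17 were above both fractions at the other end, 3 were higher by fold (Calml4, 1.71, Kcne2, 1.54, and the folate receptor Folr1, 1.28) and none passed the test. Their median difference was 0.74, and without fraction 2 the number higher by fold was 6. The spread in the test includes departures from a smooth curve along the coronal and horizontal series, and Kcne2 ran from -5.38 to 1.01 on the coronal arrays. A second Folr1 probe differed by -0.74. In the ependymal list, which holds genes of cells that line the ventricles and is counted here among the neural lists, 3 of 10 members were higher by fold (Rarres2, 1.78, Mia, 1.65, and Dnah11, 1.5) and none passed the test. These are 3 of the 11 neural genes higher by fold. The count of 3 was 1 after median centring, after quantile normalisation and with normexp.

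Among the lists of meninges and vessels, meningeal fibroblasts had 5 of 20 members higher by fold and endothelium 4 of 19, against 8.45% of all member genes, with none lower in either. Lum, lumican, a matrix proteoglycan, was at -0.14, 0.29, -0.08, 0.58, 0.20 and 2.26 in fractions 1 to 6 and rose by 2.18 (limma adjusted p = 0.00726). Col3a1, a fibrillar collagen chain, differed by 1.68 (limma adjusted p = 0.0505). The endothelial genes Egfl7 and Cldn5, a tight junction protein, rose by 1.56 and 1.32 (limma adjusted p = 0.00615 and 0.0172), and the transporters Slco1a4 and Slco1c1 rose by 0.96 and 0.89 (limma adjusted p = 0.00829 and 0.0452). Kdr, a receptor for vascular endothelial growth factor, had the largest endothelial difference at 1.87 and did not pass (limma adjusted p = 0.174), and its second probe differed by 0.59 (limma adjusted p = 0.306). The list medians were 0.58 and 0.42. After quantile normalisation 1 endothelial gene was higher by fold.

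Of the remaining non-neural lists, each had few members that passed a rule. Of mural cell genes, Higd1b rose by 1.72 (limma adjusted p = 0.0143) while the median of 12 members was -0.11. Of 14 microglial members, Gpr34 rose by 1.66 (limma adjusted p = 0.0353), Aif1 was higher by fold at 1.05, and the median was -0.04, or 0.11 against fraction 1 and -0.18 against fraction 2. Border macrophages had 2 of 10 higher by fold, Ms4a7 at 1.70 and Pf4 at 1.60, with no test passed. The keratin Krt10 rose by 1.13 (limma adjusted p = 0.0290), the only one called of 11 surface epithelium members, and its second probe differed by 0.16. Of 16 skeletal muscle members, 3 were higher by fold, 1 was lower and 1, the troponin subunit Tnni2, rose by 1.93 (limma adjusted p = 0.0136). Without fraction 2 the number of these 16 higher by fold was 6, and the median of 0.29 was 0.07. Osteoclast and pituitary lists had no member past the fold rule, and the B cell precursor and cartilage lists had 1 each, Cd79b at 1.35 and Snorc at 1.46, neither past the test.

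**Figure D2:**
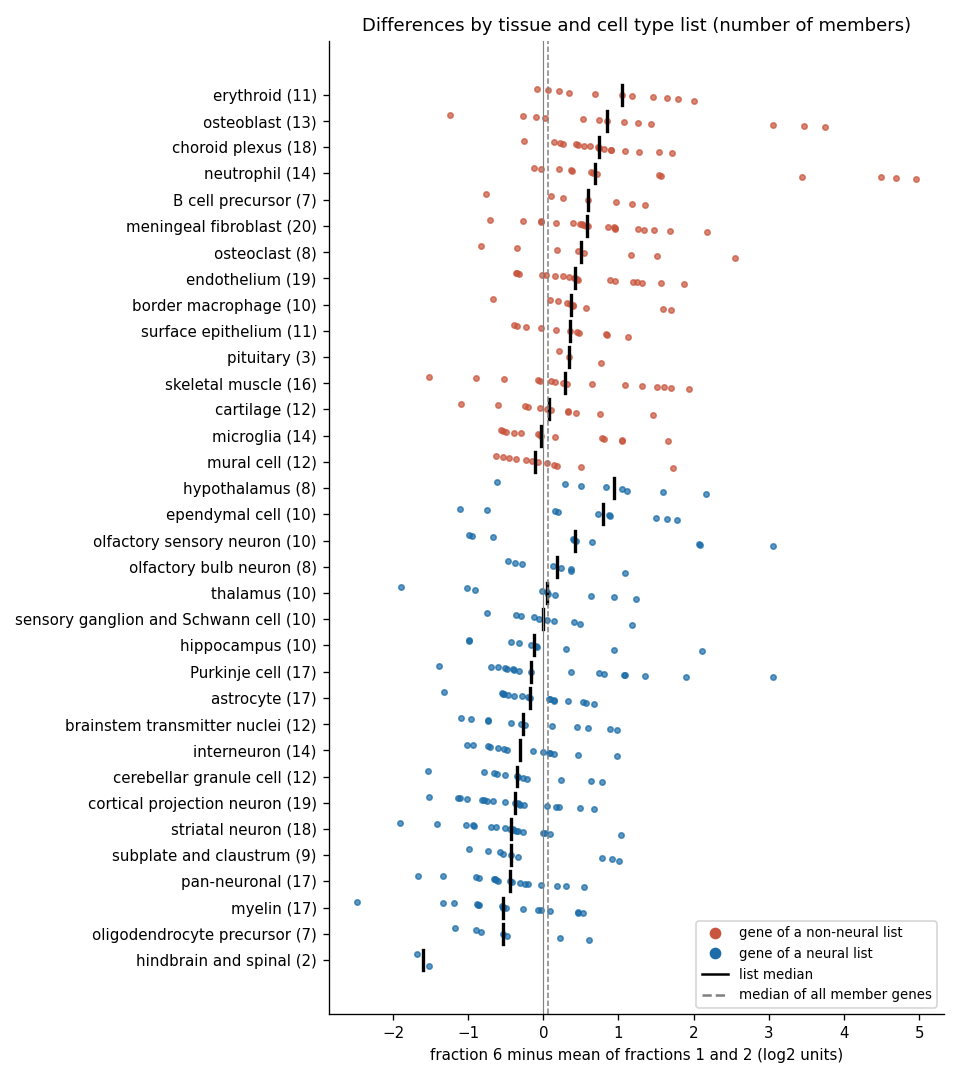
Difference between fraction 6 and the mean of fractions 1 and 2 (log2 units, horizontal axis) for each member gene of 34 tissue and cell type lists, with the number of members in brackets. Black bars are list medians and the dashed line is the median of all 14786 genes, 0.06. The 15 non-neural lists (red) have medians from -0.11 to 1.05, and the 4 genes at the far right of the neutrophil list are S100a8, Stfa1, S100a9 and Stfa3.

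Among members, which had to be well above background on the arrays compared, neural genes were called in both directions and non-neural genes mostly in the higher one. Of 226 neural members on 19 lists, 11 were higher by fold (4.87%) and 7 lower (3.10%), 2 rose and 4 fell in limma, and the median difference was -0.28. Of 188 non-neural members on 15 lists, 37 were higher (19.7%) and 2 lower (1.06%), 15 rose and none fell in limma, and the median was 0.45. Beside these, all member genes had 8.45% higher, 3.34% lower and a median of 0.06. Fraction 6 was the highest of the 6 sagittal arrays in 50.5% of non-neural members, 16.8% of neural members and 36.4% of all member genes. Fraction 6 was above fraction 1 in 115 neural members, above fraction 2 in 78 and above both in 61. For non-neural members these numbers were 142, 138 and 120, and for all member genes 8290, 7507 and 6467. Genes between the 2 fractions cannot be called by fold, so the shares by fold also depend on this. The lists were chosen with earlier results of these data known, so the counts are given without a test of the difference between the classes.

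The rule for members leaves out genes that were well above background at 1 end only. Of the non-neural list genes left out, 12 were so in fractions 1 and 2 and not in fraction 6, namely Padi4, Cd79a, Pax5, Runx2, Ifitm5, Calcr, Col10a1, Ihh, Myod1, Cldn2, Myh11 and Krt15, and 2 in fraction 6 alone. These 12 lie on 9 lists, with 2 each of B cell precursor, osteoblast and cartilage genes. Of the 11 whose call comes from a single probe, Calcr, the calcitonin receptor of osteoclasts, and Myod1, a transcription factor of muscle precursors, were at least 2-fold lower in fraction 6 than in both fractions. Calcr was at least 2.71-fold below fraction 1 and 4.58-fold below fraction 2, and Myod1 at least 3.5-fold and 2.07-fold, and neither passed the test (limma adjusted p = 0.244 and 0.215). Of the neural list genes, 13 were well above background in fractions 1 and 2 and not in fraction 6, and 0 in fraction 6 alone. Of these 13, 4 (Prox1, Chat, Hoxc5 and Hoxd4) were at least 2-fold lower in fraction 6 than in both fractions. Chat was at least 19.7-fold below fraction 1 and 4.12-fold below fraction 2. Of all analysed probes, 69.7% were well above background in fraction 1, 65.4% in fraction 2 and 56.6% in fraction 6. Whether the lists differ from all genes in such losses was not tested. With genes well above background on at least 1 of the 3 arrays, 43 of 228 non-neural genes were higher (18.9%) and 8 lower (3.51%). Of 264 neural genes, 11 were higher (4.17%) and 15 lower (5.68%). Over all 17097 such genes the shares were 8.09% and 4.64%.

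The pooled neural median depended on which fraction stood for the other end. It was 0.04 without fraction 2 and -0.40 without fraction 1. The number lower by fold was 50 (22.1%) without fraction 1 and 23 (10.2%) without fraction 2, with 17 (7.52%) and 41 (18.1%) higher. Of all member genes, 6.99% were lower and 11.6% higher without fraction 1, and 6.95% and 13.5% without fraction 2. The non-neural median stayed above 0 in both cases, at 0.56 without fraction 2 and 0.38 without fraction 1. Of non-neural members, 62 (33%) and 45 (23.9%) were higher in these settings. The neural lists differed in how they depended on the fraction used. The pan-neuronal median was -0.46 against fraction 1 and -0.38 against fraction 2. The cortical projection, subplate and interneuron medians were -0.77, -0.49 and -0.23 against fraction 1 and -0.02, 0.15 and 0.01 against fraction 2. The astrocyte and myelin medians were 0.31 and 0.61 against fraction 1 and -0.64 and -1.59 against fraction 2. The brainstem transmitter, cerebellar granule cell and sensory ganglion medians were 0.14, 0.21 and 0.05 against fraction 1 and -0.69, -1.0 and -0.30 against fraction 2, and the thalamic and Purkinje medians changed sign in the same way. Of the non-neural lists, the microglial and cartilage medians did so, the latter with 0.33 and -0.04.

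**Figure D3:**
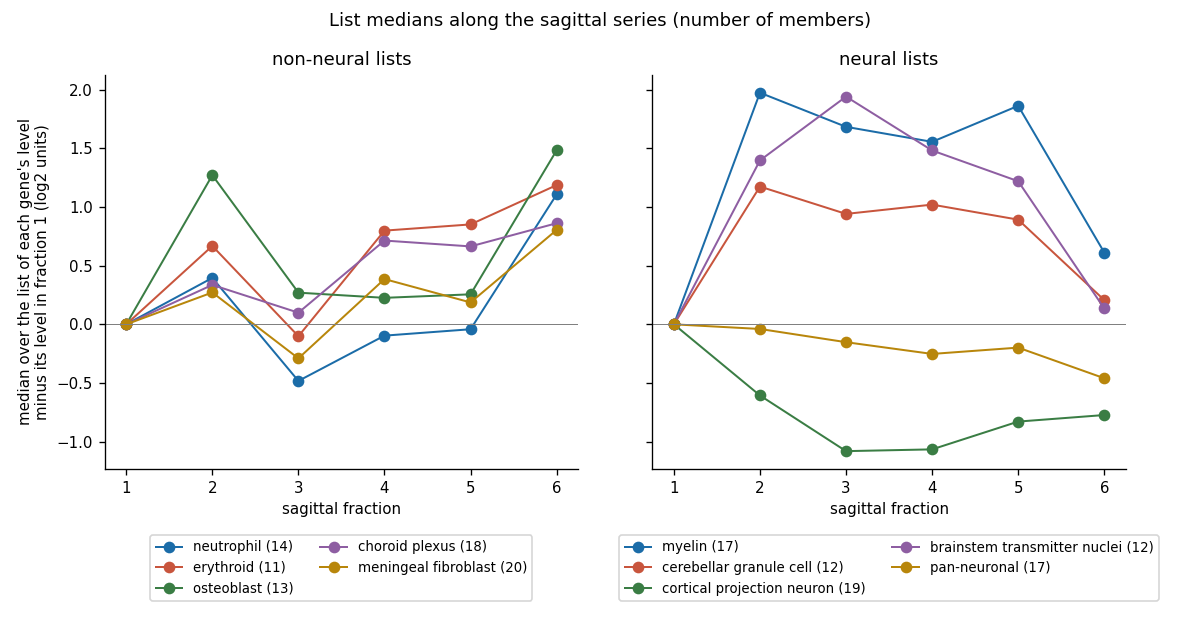
Median over the members of a list of each gene's level minus its level in fraction 1 (log2 units), along the 6 sagittal fractions, for 5 non-neural and 5 neural lists. The osteoblast list peaks in fractions 2 and 6, the neutrophil list in fraction 6, and the myelin list lies highest in fraction 2 and at 0.61 in fraction 6.

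Of 17 pan-neuronal members, Rbfox3, which encodes the neuronal nuclear antigen NeuN, fell by 0.63 (limma adjusted p = 0.0458). Its other 2 probes fell by 1.06 and 1.12 (limma adjusted p = 0.00662 and 0.00938). The level of the probe read for the gene was 5.35 and 5.36 in fractions 1 and 2, 4.93, 5.03 and 5.13 in fractions 3 to 5, and 4.73 in fraction 6. Syn1, a synaptic vesicle protein, was lower by fold at -1.33 and did not pass (limma adjusted p = 0.107). The median of the list was -0.44. Cortical projection neuron genes differed from fraction 1 by a median of -0.77 and from fraction 2 by -0.02, with Bcl11b lower by fold at -1.52. Of 18 striatal members, Six3 was lower by fold at -1.91 (limma adjusted p = 0.130) and none was higher. Of 10 thalamic members, Rgs16 was lower by fold at -1.90 and Plekhg1 higher at 1.23 (limma adjusted p = 0.0545 and 0.109), and the median was 0.06, or 0.39 against fraction 1 and -0.58 against fraction 2. Subplate, interneuron, brainstem transmitter, cerebellar granule cell, olfactory bulb and astrocyte lists had no member called by either rule. Chat, of the brainstem transmitter list, was not a member, since it was not well above background in fraction 6.

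Myelin genes gave opposite answers against the 2 fractions. Of 17 members, 13 were above fraction 1 and 1 was above fraction 2, with medians of 0.61 and -1.59. Cnp, an enzyme of oligodendrocytes, was at 2.36, 4.33, 4.04, 3.88, 4.10 and 2.49 in fractions 1 to 6, so fractions 1 and 6 were low and fraction 2 was not. The 3 probes of Mbp, myelin basic protein, disagreed. The probe read for the gene was at 2.60 to 2.70 in fractions 1 to 5 and fell by 0.88 to 1.74 in fraction 6 (limma adjusted p = 0.0295). Another was at -1.30, 2.86, 2.39, 2.69, 2.85 and 0.36 in fractions 1 to 6, low at both ends like Cnp, with a difference of -0.42 (limma adjusted p = 0.891), and the last differed by less than 0.01 (limma adjusted p = 0.997). Olig1, a transcription factor of the oligodendrocyte lineage, was at 4.10, 4.45, 4.62, 4.50, 4.63 and 3.09 and fell by 1.18 (limma adjusted p = 0.0311). Pdgfra, a growth factor receptor of oligodendrocyte precursors, fell by 0.83 (limma adjusted p = 0.0495).

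Ermn, an oligodendrocyte cytoskeletal gene of the same list, departed from this order. It was at 6.09, 1.86, 5.13, 2.39, 2.75 and 1.49 in fractions 1 to 6, high on the 2 arrays on which spike-in control a107 read high. Snap25, a synaptic protein, was at 7.39 and 7.06 on these arrays and at 4.90 to 5.40 on the other 4, and Lhx6, an interneuron transcription factor, at 6.22 and 5.71 against 3.19 to 4.28. A second Ermn probe (-0.62, 1.02, -0.07, 0.66, 0.56 and -0.72 in fractions 1 to 6) and a second Lhx6 probe (0.16, -0.52, -0.96, -1.38, -0.82 and -1.16) did not show the same order. These 3 genes were chosen after their values were seen. The part of the spike-in reading in these levels was not tested.

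Gng13, a G protein gamma subunit of Purkinje cells and of olfactory and taste receptor cells, was at 4.55, 3.87, 3.32, 4.51, 4.59 and 7.26 in fractions 1 to 6. It rose by 3.05 (SE 0.46, limma adjusted p = 0.00615), kept its call without fraction 1 and without fraction 2, and exceeded the highest array of the other mice, horizontal fraction 1 at 6.05. No other gene of the Purkinje list was higher by fold. Among them, Pcp2 was at 2.71, 4.80 and 5.11 and the calcium buffer Pvalb at -0.30, 2.66 and 3.08 in fractions 1, 2 and 6, so that fraction 6 was within 0.42 of fraction 2, and the transcription factor Lhx1 was lower by fold at -1.39. The Purkinje list had a median of -0.16 over 17 members, which was 0.62 against fraction 1 and -0.44 against fraction 2. Omp, the marker of mature olfactory neurons, was at -2.58, -2.27, -1.19, 0.50, -0.68 and -1.78, lowest in the outer fractions and highest in fraction 4. S100a5 and Gng8, of the same neurons, were higher by fold at 2.09 and 2.08 and were also highest in fraction 4, at 1.63 and 1.89 against -0.41 and -0.14 in fraction 6.

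Of 8 hypothalamic members, Pomc, the precursor of several peptide hormones, was at 0.22, 0.17, 0.28, 0.69, 0.51 and 1.79 and rose by 1.60 (limma adjusted p = 0.0131). Agrp, a neuropeptide of the same region, was at -3.91, -3.04, -1.14, -0.47, -2.46 and -1.30, higher by fold at 2.17 and highest in fraction 4. Spink8, a hippocampal gene, was at -0.86 in fraction 1 and 0.27 in fraction 6 and between -2.98 and -2.44 in fractions 2 to 5. Its difference of 2.12 did not pass the test (limma adjusted p = 0.386). It was the 1 gene higher by fold of 10 hippocampal members, whose median was -0.13, and Zbtb20 and Fibcd1 differed by -0.99 each.

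The genes with the largest differences were not mostly from these lists. Beside the neutrophil genes, the 15 largest among those past both rules included Rpl39l, a ribosomal protein paralogue, which rose by 3.79, and Spink10, a protease inhibitor family gene, which rose by 3.53 (limma adjusted p = 0.00555 and 0.00869). They also included the RNA components of RNase MRP and RNase P, which process ribosomal and transfer RNA. Rmrp was at 2.27, 2.47, 1.67, 3.42, 3.32 and 5.63 in fractions 1 to 6 and rose by 3.26 (limma adjusted p = 0.00903). Rpph1 rose by 3.15, its relative Rprl2 by 3.65, and the small nucleolar RNA Snora74a by 3.22 (limma adjusted p = 0.00662, 0.0078 and 0.0130). Wfdc17 and Gm10046 complete the set at 3.17 and 3.10 (limma adjusted p = 0.0439 and 0.00615). Without fraction 1 and without fraction 2, Snora74a (differences 3.22 and 3.22) and Wfdc17 (2.79 and 3.56) lost their calls. Wfdc17 lost its call in 5 of the 6 settings in which the test was rerun.

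Groups picked by gene name after these values were seen are given as counts only. Of 81 cytosolic ribosomal protein genes, 73 were higher by fold, against 8.45% of all genes, and their median difference was 1.56. Their median level was 7.42, 7.55, 7.34, 7.87, 8.01 and 9.12 in fractions 1 to 6. With all member genes split evenly into 4 by level, 9.49%, 4.68%, 5.11% and 14.5% were higher by fold, from the dimmest set to the brightest. The median differences of these sets were 0.14, -0.08, -0.03 and 0.21. The name groups were not set beside genes of like level, so the part of level in their counts was not tested. Rpl22 was at 6.57, 6.46, 6.34, 7.22, 7.14 and 8.94, with a second probe that differed by 0.06, and Rps4l stood between 3.40 and 3.61 on all 6 arrays. Subunits of respiratory complex I were higher in 23 of 37 cases (median 1.41), and those of complex III and cytochrome oxidase in 22 of 33 (median 1.34). Mitochondrial ribosomal proteins were higher in 28 of 77 (median 0.85), core histones in 18 of 44 (median 1.23) and beta thymosins, actin-binding peptides, in 5 of 5 (median 2.03). Of host genes of small nucleolar RNA, 7 of 8 were higher, led by Snhg6 at 5.53, 5.11, 4.92, 5.89, 6.05 and 8.22. CC chemokines were higher in 9 of 14 (median 1.23). In some of these groups the other counts were much smaller. Of core histones 1 of 44 passed limma and 7 were higher after the correction for gene span, and of CC chemokines 3 passed limma and 5 were higher after it. Of cytosolic ribosomal proteins 72 passed limma and 49 were higher after it. By contrast, 3 of 38 proteasome subunits were higher (median 0.40), and of 280 solute carriers 12 were higher and 18 lower.

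**Figure D4:**
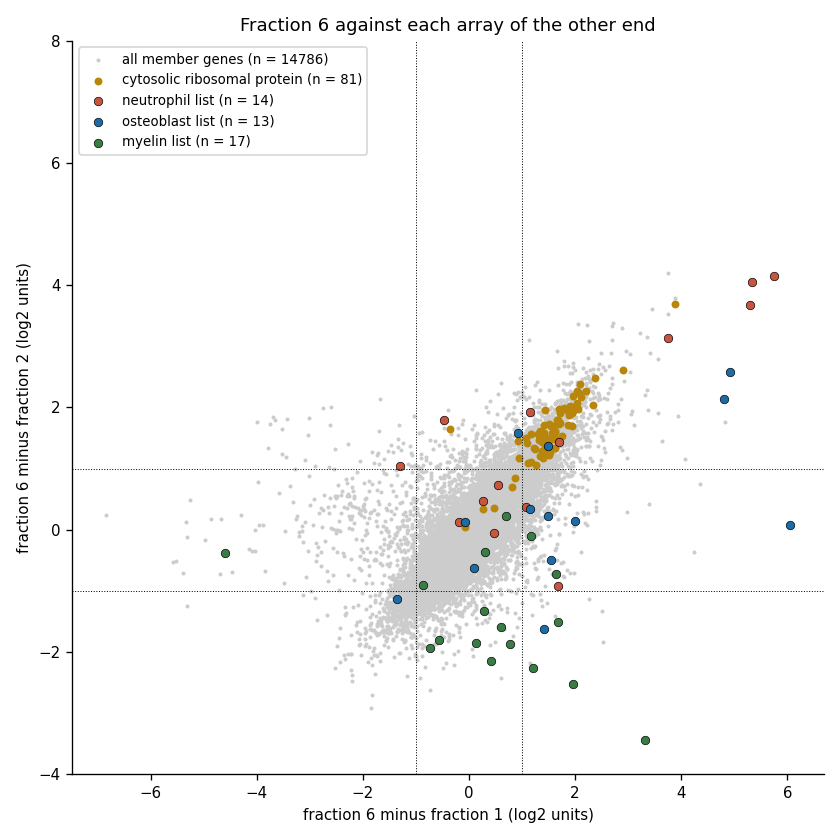
Fraction 6 minus fraction 1 (horizontal) against fraction 6 minus fraction 2 (vertical), in log2 units, for 14786 genes (grey) and 4 groups, with dotted lines at 1 and -1. Cytosolic ribosomal proteins (73 of 81 higher by fold) form a compact cluster above both lines, neutrophil genes reach 5.76 and 4.16, Ibsp lies at 6.04 and 0.07, and most myelin genes lie to the right of 0 and below it.

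The differences varied with the length of the gene on the chromosome. The median genomic span from start to end of the gene in the RefSeq annotation was 7836 bp in the 1250 higher genes, 48805 bp in the 494 lower genes and 22087 bp in all. Of the shortest decile, 62 to 3709 bp, 24.8% were higher by fold and the median difference was 0.54. Of the longest decile, 128307 bp and more, 3.99% were higher and 6.77% lower, with a median of -0.24. Across genes, which are not independent, Spearman's correlation of span with the deviation of fraction 6 from a gene's sagittal mean was -0.28, and it was -0.06 to 0.20 for the other 5 sagittal arrays. In horizontal fraction 1, of another mouse, it was -0.27, the lowest of the 16 arrays of the other series. These correlations share the same genes and the same scaling in each array.

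The classes were also set beside genes of like span. With genes split evenly into 3 by span, in the shortest set, 27 of 97 non-neural members (27.8%) and 6 of 90 neural members (6.67%) were higher, against 15.7% of all genes. In the longest set the shares were 7.5%, 3.70% and 4.04%. When each array was corrected for the shift of its genes of the same span decile, 7.17% of genes were higher and 2.98% lower. Under that correction 28 non-neural members were higher and 1 lower, with a median of 0.33, and 12 neural members were higher and 11 lower, with a median of -0.28. The difference of S100a8 was then 4.44, and that of Gng13 was 2.54. RNA length itself was not used here, and what sets the dependence on span was not tested.

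**Figure D5:**
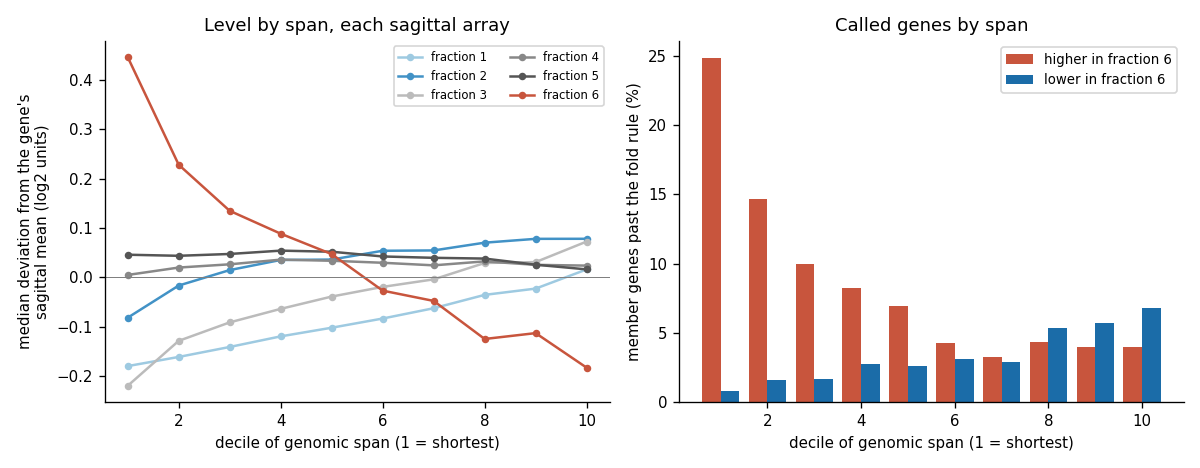
Left, median deviation of each sagittal array from the gene's sagittal mean (log2 units) by decile of genomic span, where decile 1 is the shortest. Right, percentage of genes past the fold rule in each decile, higher in fraction 6 in red and lower in blue. Fraction 6 falls from 0.45 in decile 1 to below 0 in the long deciles, and the share of higher genes goes from 24.8% to 3.99%.

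The 494 genes lower in fraction 6 had median levels of 0.44, 0.41, 0.46, 0.09, 0.05 and -0.95 in fractions 1 to 6. Fraction 6 was the lowest of the 6 arrays in 484 of them, and 202 were also at least 1 log2 unit below each of fractions 3 to 5. Of those past both rules the largest was Arfgef3, a regulator of vesicle trafficking, at 0.00, -0.26, -0.18, -1.20, -1.22 and -2.52, which fell by 2.39 (limma adjusted p = 0.0314). The call was lost without fraction 1, without fraction 2 and under median centring (limma adjusted p = 0.117, 0.0821 and 0.0543). Kcna2, a voltage-gated potassium channel of axons, fell by 2.04 (limma adjusted p = 0.00938). Adgrl1, a synaptic adhesion receptor, was at 3.31, 3.12, 3.02, 2.47, 2.25 and 1.24 and fell by 1.97 (limma adjusted p = 0.0262), and its second probe differed by -1.27. Without fraction 2 neither Kcna2 nor Adgrl1 kept its call (limma adjusted p = 0.0512 and 0.0734), and Adgrl1 lost it without fraction 1 and under median centring as well (0.100 and 0.0589).

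Other probes of the called genes gave a check within these arrays. For genes higher in fraction 6, 343 of 397 other probes (86.4%) had the same direction and 208 (52.4%) passed the fold rule. For lower genes, 76 of 128 (59.4%) had the same direction and 18 (14.1%) passed it. No share for other probes of all genes was set beside these, so how far they exceed it was not tested. Wdfy3, an autophagy adaptor that fell by 2.29, had a second probe with a difference of 1.15. Its call was lost without fraction 1, without fraction 2 and with normexp (limma adjusted p = 0.0860, 0.0602 and 0.113).

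The coronal and horizontal arrays show where the called genes were highest in the other mice, on other slides except for coronal fractions 9 and 10. Of the 1250 higher genes, 57.4% were highest in horizontal fraction 1, against 19.6% of all member genes, and 44.9% were highest in coronal fraction 3, against 22.7%. With each array centred on its median these shares were 38.6%, against 9.12% of all member genes, and 55.0%, against 28.1%. Of the lower genes, 56.7% were highest in horizontal fraction 5, against 24.4%. The erythroid list was highest in horizontal fraction 1 in 63.6% of members and the neutrophil list in 57.1%, while 69.2% of osteoblast members were highest in horizontal fraction 6, against 24.0% of all genes. Horizontal fraction 1 was also the array whose dependence on gene span came nearest to that of sagittal fraction 6. Its 75th percentile of intensity, 268, was the next lowest after the 260 of sagittal fraction 6. Its spike-in slope was 0.891 and its spike-in control a107 read 7.90. The part of these array traits in the shares was not tested.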

How the data were processed

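The authors sliced 3 brains, pooled slices into fractions and hybridised total RNA of each to 1 Agilent array designed on mm9. Per the file headers, Feature Extraction 10.10.1.1 subtracted the background and gave each spot a processed intensity, which is linear. The deposited table of log2 values holds 47544 rows, and 100% of the 47478 matched to a probe lay within 0.02 of log2 intensity minus the array's 75th percentile.

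From the scanner files, control and outlier spots were left out, spots of a probe were averaged, and 55600 probes were analysed on that scale. No spot was saturated. Of 28087 RefSeq probes 26553 took a symbol from a RefSeq table of another assembly. Levels were scaled per array, so a change common to all genes of an array is not seen.

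limma 3.58.1 in R 4.3.3 (lmFit, contrasts.fit, eBayes, no trend, two-sided, Benjamini-Hochberg) was fitted to 39621 probes well above background in at least 1 fraction of each series, with an intercept and linear and quadratic slab terms for the coronal and horizontal series and 3 means for the sagittal series (fractions 1 and 2, 3 to 5, and 6). This leaves 13 residual degrees of freedom, with a median SE of 0.46. The study's methods name no test. p-values measure only the spread between these arrays, which holds no spread between animals. This spread includes the departure of coronal and horizontal levels from the fitted curves. Genes patterned along those series can thus have a large SE, which was 1.95 for Ttr and 0.46 for Gng13. On simulated data the fit recovered 46% of changes of 2 log2 units and 79% of 4, with 8 false calls. The simulated noise was independent for each probe and array, and fraction 6 was made to vary like the other arrays. The simulation held no shift shared by many genes of an array, so its false calls do not measure errors among the real calls. The number of arrays limits the precision.

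Genes were named as follows: the 5 markers, the 15 largest differences in each direction among genes past the fold rule and the test, up to 4 members with the largest absolute difference in each list and its first members, with bounds for genes detected in fraction 6 alone. A bound compares fraction 6 with the higher of the dim probe's own level and the lowest level well above background. Some genes that the rule takes are not reported here. Genes and name groups outside this rule were chosen after their values were seen. The members and lists were chosen with earlier results of these data known. Alternatives were median centring, quantile normalisation, and normexp with offset 50 on the median and background signals (the mean signal was not used here). Others were spike-in control a107 and the slide as terms, other probe sets, the fold, the deposited table and leaving out arrays. The correction by span decile was added after seeing the data. Python 3.11.15, numpy 2.4.6, scipy 1.17.1, pandas 2.3.3 and matplotlib 3.10.9 were used.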

Additional observations from a re-analysis of the deposited data

How the results depend on the processing

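No paired analysis was possible because the 3 arrays compared are unreplicated slabs of 1 mouse, and replicate numbers shared with other groups are only fraction numbers. The limma count of 4034 probes became 1104 under median centring (803 higher, 301 lower), 1741 after quantile normalisation, 7069 with normexp and 0 with the sagittal arrays alone (9587 at an unadjusted p under 0.05). Leaving out 1 array gave 1657 to 4934. It stayed within 1.5 times with the spike-in term (4192), with slide as a term (4590), with every probe (3767) and with probes well above background on all 22 arrays (5029).

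The 1250 genes higher by fold became 733 after quantile normalisation, 800 with normexp, 110 at 2 log2 units and 1710 to 1992 without fraction 1 or 2. The 494 lower became 261 with normexp, 11 at 2 log2 units, 794 with detection on at least 1 of the 3 arrays and 1028 to 1033 without fraction 2 or 1. Non-neural genes higher, 37 by fold, were 6 at 2 log2 units, 15 by limma and 45 to 62 without 1 array. Non-neural genes lower, 2 by fold, were 1 with normexp or the span correction, 0 at 2 log2 units or by limma, 8 with detection on any of the 3 arrays and 5 to 6 without 1 array. Neural genes higher, 11 by fold, were 5 with normexp, 1 at 2 log2 units, 2 by limma and 17 to 41 without 1 array. Neural genes lower, 7 by fold, were 11 after quantile normalisation or the span correction, 4 with normexp or by limma, 0 at 2 log2 units, 15 with detection on any of the 3 arrays and 23 to 50 without 1 array. Counts rise without 1 array because the rule then has 1 array fewer to pass, and the other causes were not tested.

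Fractions 1 and 2 differed in 1550 genes after quantile normalisation instead of 1025. The shares of higher genes highest in coronal fraction 3 and horizontal fraction 1 were 50% and 68.2% at 2 log2 units, and 55.0% and 38.6% with median centring, against 28.1% and 9.12% of all member genes so centred. Of the 33 markers and largest genes, Ttr turned negative after quantile normalisation (-0.088), and no other changed direction under the settings run. Calls were lost for 9 with median centring, 5 with quantile normalisation, 6 with normexp, 17 without fraction 1 and 14 without fraction 2, and 1 with the spike-in term (Wfdc17, adjusted p = 0.0579). Dim probes limit what can be read at levels near -4, where the SD between spots was about 0.33.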
